A study of Mus musculus with 8 samples.

Results

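Serpins are a superfamily of proteins that share 1 fold and that mostly act as inhibitors of serine proteases. In the liver RNA table, the serpin genes were taken as every gene symbol of the form Serpin, clade letter a to i and number, leaving out symbols marked as pseudogenes by "-ps", with a summed estimated count of at least 15 over the 8 libraries. Of 63 such symbols, 36 passed this threshold, out of 35976 genes in the table, and 27 did not, 15 of them with no count at all. Serpina3c and Serpinb1c, each with 18 counts, and Serpinb10, with 19, lay just inside the threshold. Serpina5 and Serpine3, each with 12 counts, and Serpinb1b, with 10, lay just outside it. The 36 genes comprised 20 of clade A, 7 of clade B, 2 each of clades E and F, and 1 each of clades C, D, G, H and I.

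RNA was sequenced from whole liver of mice, all of them on a high fat diet. In 3 samples (OPA1_LKO) Opa1, which encodes the GTPase that fuses the inner mitochondrial membrane, had been knocked out in hepatocytes, and 5 samples (CTRL) were controls. The strain, age and sex of the mice, the Cre driver of the knockout, the genotype of the controls beyond CTRL, and whether each sample is a separate animal were not stated. The p-values thus cover the spread among these libraries, part of which may be technical. By its title, the study asked whether blocking inner membrane fusion in hepatocytes lessens fatty liver in obesity.

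A serpin carries an exposed stretch near its C terminus, the reactive centre loop, which a protease takes as a substrate. On cleavage the loop inserts into the body of the serpin and the protease is trapped as an inactive complex, so that the residues of the loop set which protease is caught. Hepatocytes secrete most serpins of the plasma, among them alpha-1-antitrypsin, antithrombin, antiplasmin and C1 inhibitor, while clade B serpins mostly stay inside cells. A few members inhibit nothing and serve as hormone carriers or as a chaperone.

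Library totals lay between 16076404 and 20471271 estimated counts. Opa1 stood at 48.1 ± 6.90 CPM (counts scaled to library size) in CTRL and 31.0 ± 5.52 CPM in OPA1_LKO (SD), with every OPA1_LKO library below every CTRL library and an adjusted p of 0.0539 by the edgeR quasi-likelihood test. CTRL replicate 1 stood apart from the rest: Apoe was at 134 CPM there and at 20759 CPM or above in the other libraries, and the summed CPM of 8 macrophage markers was 838 there, 171 to 370 in the other CTRL libraries and 164 to 232 in OPA1_LKO. The hepatocyte markers were abundant in every library, with a summed level of 56010 to 97850 CPM in CTRL and 67216 to 87914 CPM in OPA1_LKO. Of these 6 markers Tat, tyrosine aminotransferase, was called higher (462 to 1405 CPM, edgeR adjusted p = 0.0095) and the 5 others were not called. The 6 bile duct markers summed to 17.5 to 69.6 CPM in CTRL and to 140 to 204 CPM in OPA1_LKO, where Krt7, Sox9 and Spp1 were called higher by edgeR and Cldn7 was at 0 in CTRL replicate 2. Spp1 made up most of the OPA1_LKO sums. Without it the sum was 48.6 CPM in CTRL replicate 3, 3.29 to 4.30 CPM in the other CTRL libraries and 18.6 to 27.8 CPM in OPA1_LKO, and Krt19 (log2 fold change -0.50), Epcam and Cldn7, each highest in CTRL replicate 3, were not called. None of the 7 endothelial markers (143 to 216 CPM in CTRL, 125 to 232 CPM in OPA1_LKO) or of the tested markers of neutrophils, T or NK cells, B cells, mesothelium and pancreas was called by edgeR, and the 3 adipocyte markers summed to at most 1.48 CPM. Each of 4 Y-linked genes had counts in all 8 libraries, while Xist had 153 counts in CTRL replicate 1 and at most 4 elsewhere.

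Serpin transcripts were led by the copies of alpha-1-antitrypsin in every library. By TPM, which corrects for transcript length, the 36 genes together held 1.18 to 2.17% of the total in CTRL and 1.53 to 2.51% in OPA1_LKO, so that the groups overlapped. The 5 copies Serpina1a to Serpina1e, the mouse counterparts of alpha-1-antitrypsin, which guards tissue from neutrophil elastase, held 64.8% ± 2.71 of the serpin TPM in CTRL (SD, n = 5) and 69.8% ± 0.673 in OPA1_LKO (SD, n = 3). Serpina3k, a relative of alpha-1-antichymotrypsin, held 18.5% ± 1.14 and 15.7% ± 2.37. The antithrombin gene Serpinc1 followed with 6.50% and 5.77%. At the other end, the lowest tested gene was Serpina3h, annotated as a transcribed pseudogene, at 0.242 ± 0.184 TPM in CTRL.

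**Figure D1:**
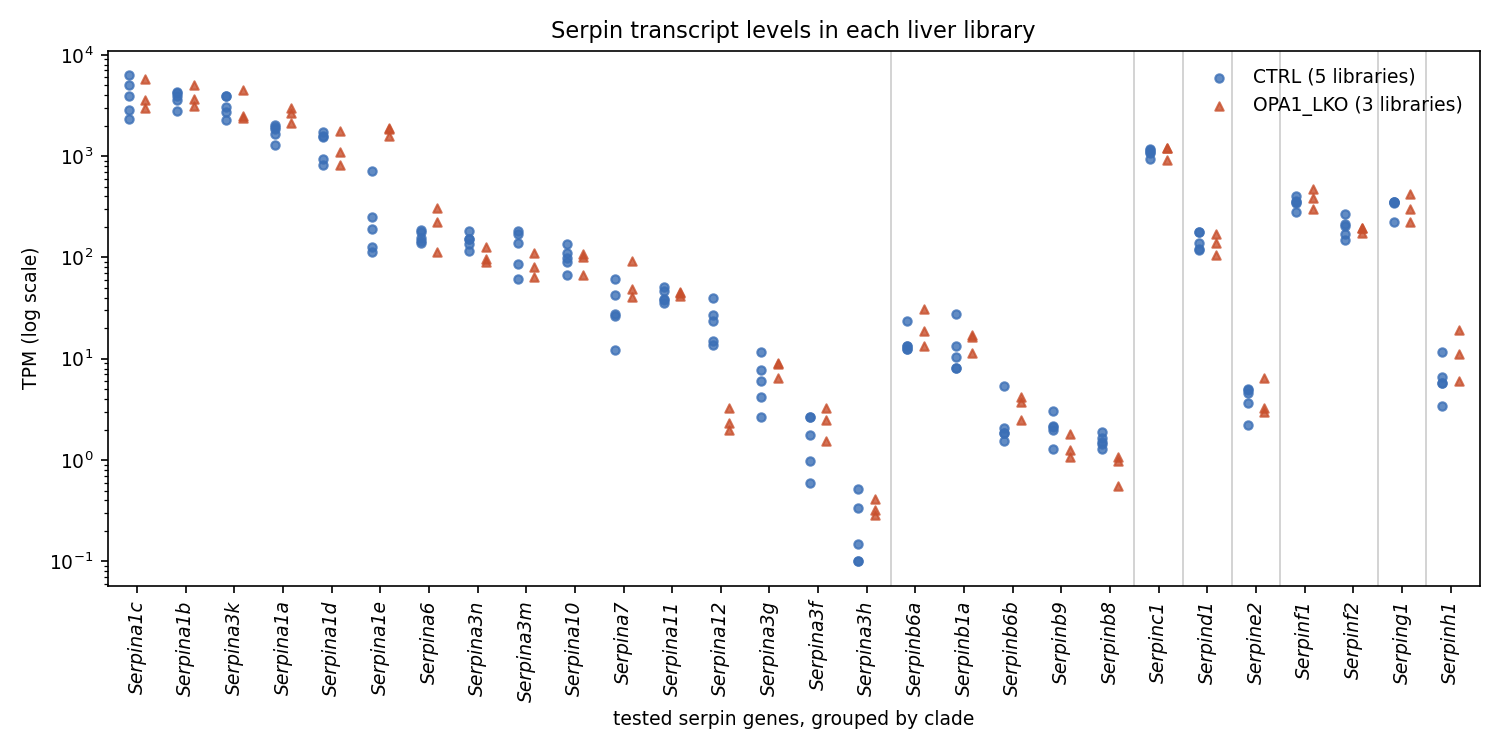
Level of 28 of the 29 tested serpin genes in TPM (log scale), 1 point per library (blue circles, 5 CTRL; red triangles, 3 OPA1_LKO), with vertical lines between clades A, B, C, D, E, F, G and H. Serpina1a, Serpina1b, Serpina1c and Serpina3k lie highest. For Serpina1e the OPA1_LKO points lie above all CTRL points and for Serpina12 below them.

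After the filter on low counts, 29 of the 36 genes were tested with the rest of the table. The other 7 were Serpina9, Serpina3b, Serpina3c, Serpina3i, Serpinb1c, Serpinb10 and Serpini1. Serpina1e rose in OPA1_LKO and Serpina12 and Serpinb8 fell, which is 3 of 29 or 10.3%, where 6.03% of the 14036 tested genes were called in either direction, 3.34% higher and 2.69% lower (edgeR, adjusted p under 0.05 after Benjamini-Hochberg adjustment over all tested genes). An unadjusted p under 0.05 was reached by 6 of the 29, and by 3337 of all tested genes. Without CTRL replicate 1 the same 3 genes were called with Serpina3n and Serpina3m, both lower, and 12.2% of all genes were called. The groups did not overlap for 4 serpin genes, with OPA1_LKO above CTRL for Serpina1e and below it for Serpina12, Serpinb8 and Serpina3n. For all tested genes this share was 16.4%, of which 8% above and 8.41% below.

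Of the 29 log2 fold changes (OPA1_LKO over CTRL), 10 were above 0 and 19 below, with a median of -0.14, against a median of -0.03 over all tested genes, of which 46.9% were above 0. On the log2(TPM + 1) scale the 2 medians were 0.050 and 0.092. In whole liver, fewer cells of a type and less RNA per cell cannot be told apart. The part of the bile duct markers that were called, Krt7, Sox9 and Spp1, and of Tat in the serpin differences was not tested.

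**Figure D2:**
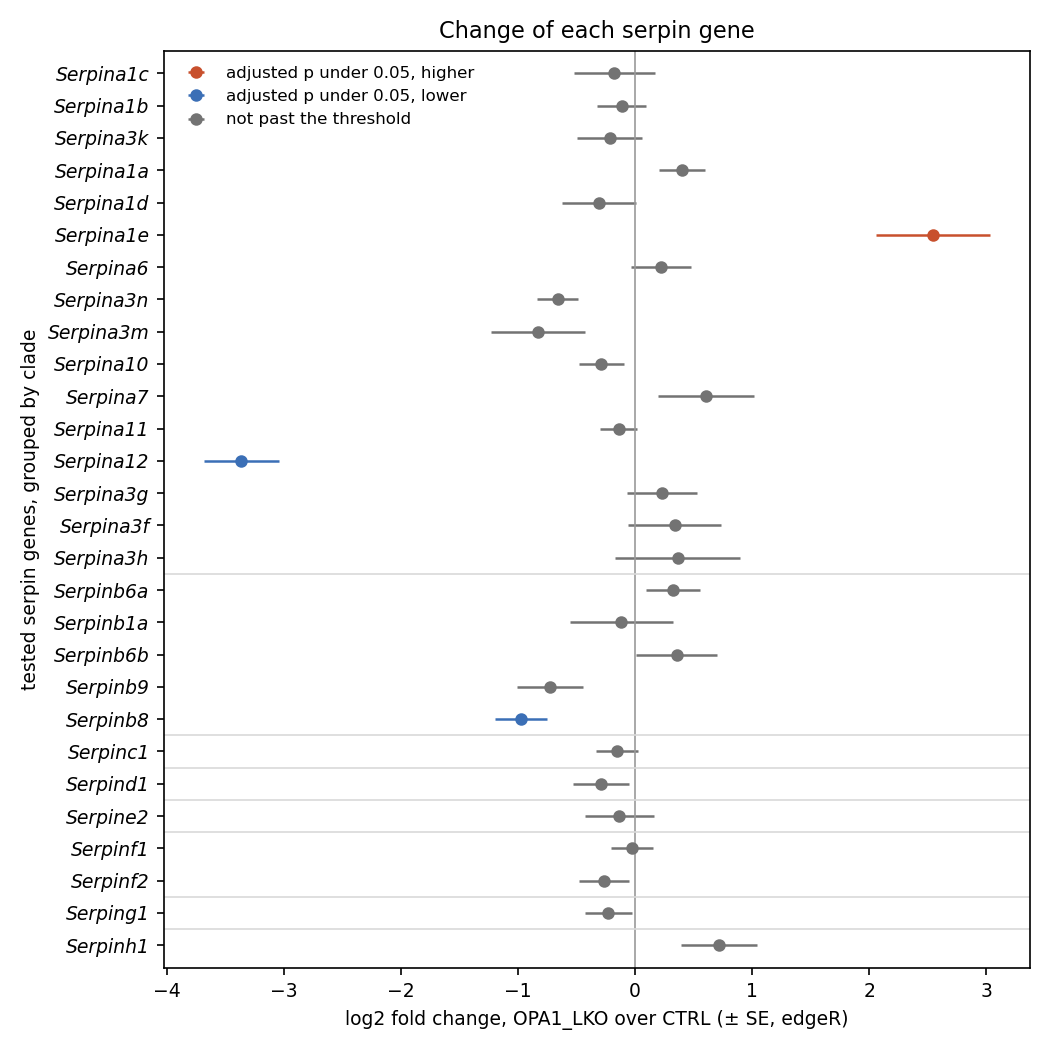
Log2 fold change of OPA1_LKO over CTRL for 28 of the 29 tested serpin genes, as points with bars of 1 SE from the edgeR fit, ordered by clade and level. Serpina1e lies at 2.55, Serpina12 at -3.36 and Serpinb8 at -0.98, and the remaining 25 points, in grey, did not pass the threshold.

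The coding sequences of the Serpina1 copies vary at a larger share of bases in the loop that meets the protease than outside it, although most of the varying bases lie outside it. In the reference genome (GRCm38, GENCODE M21 annotation) they lie on the minus strand of chromosome 12, and the loop is coded in exon 5 of 5. The stretch coding the loop of each copy is given below, since these residues meet the protease, with the bases that vary among the copies in capitals.
Serpina1a, chr12:103853765-103853830: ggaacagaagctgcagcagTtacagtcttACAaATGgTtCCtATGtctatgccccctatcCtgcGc
Serpina1b, chr12:103728332-103728397: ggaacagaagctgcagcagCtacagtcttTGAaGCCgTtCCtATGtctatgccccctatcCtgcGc
Serpina1c, chr12:103895102-103895167: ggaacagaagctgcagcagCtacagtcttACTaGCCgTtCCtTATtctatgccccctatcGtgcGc
Serpina1d, chr12:103763770-103763835: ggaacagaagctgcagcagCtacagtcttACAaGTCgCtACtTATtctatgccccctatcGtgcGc
Serpina1e, chr12:103947108-103947173: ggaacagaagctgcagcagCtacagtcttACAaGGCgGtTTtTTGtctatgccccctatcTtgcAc
Of the 66 bases, 15 vary (22.7%), against 6.05% of the 1173 other coding bases, and 9 of the 22 codons differ in the residue they encode. Serpina1e has 6 bases that no other copy has at that place, while Serpina1a has 3, Serpina1b and Serpina1d 2 each and Serpina1c 1.

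This likeness bears on how well each copy could be counted. Over the whole coding sequence the copies were 96.3 to 98.5% identical in the 10 pairs, and RSEM divides reads that match several copies by estimation. Of all windows of 100 bases along the coding sequence, 80.9% of those of Serpina1e occurred in no other copy. This share was 72.0% for Serpina1b, 70.1% for Serpina1d, 38.7% for Serpina1a and 38.2% for Serpina1c. With windows of 50 bases the shares were 61.0% for Serpina1e, 55.3% for Serpina1b, 49.0% for Serpina1d, 25.5% for Serpina1a and 25.3% for Serpina1c. The read length is not given in the sources used here. With either window Serpina1e had the most sequence of its own and Serpina1a and Serpina1c the least, in the reference strain, and the strain of these mice is not stated. The levels of single copies are therefore uncertain in how shared reads were split.

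The 5 copies are also much alike in part of the sequence upstream of their annotated starts. A stretch of 115 bases that ends upstream of the annotated start is shown from RefSeq (GRCm38.p6, minus strand). It is given because Serpina1e moved while its copies did not pass the test. Each stretch was cut around the sequence GTTAAT near its end, so that the match there was fixed by this choice. Capitals mark the 10 positions that vary.
Serpina1a, chr12:103863626-103863740: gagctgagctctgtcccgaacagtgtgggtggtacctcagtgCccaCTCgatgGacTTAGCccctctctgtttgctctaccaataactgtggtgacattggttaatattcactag
Serpina1b, chr12:103738201-103738315: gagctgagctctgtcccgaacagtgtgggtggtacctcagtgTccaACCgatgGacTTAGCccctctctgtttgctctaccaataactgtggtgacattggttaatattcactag
Serpina1c, chr12:103904963-103905077: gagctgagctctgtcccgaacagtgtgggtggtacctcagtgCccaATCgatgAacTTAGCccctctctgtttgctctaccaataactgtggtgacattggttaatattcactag
Serpina1d, chr12:103773635-103773749: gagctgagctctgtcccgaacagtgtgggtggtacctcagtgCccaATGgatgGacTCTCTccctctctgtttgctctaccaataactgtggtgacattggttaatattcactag
Serpina1e, chr12:103956961-103957075: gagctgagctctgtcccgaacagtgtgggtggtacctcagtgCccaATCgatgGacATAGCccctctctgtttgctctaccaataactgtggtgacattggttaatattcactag
Serpina1e differs from the 4 others at 1 of these positions, as do Serpina1a and Serpina1c, while Serpina1b does at 2 and Serpina1d at 5. The annotated start of Serpina1e lies 63 bases after the stretch, against 1 to 12 bases in the other copies. The STAT5 motif TTCNNNGAA, searched on both strands in the 32851 RefSeq promoter windows of 300 bases (250 before the start and 50 after), occurred in 8.3% of windows and in none of the 5. Most windows lack the motif and the 5 copies are close to each other, so nothing is read from its absence. Of the 36 serpin genes 27 had a promoter entry.

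Serpina1e measured 244, 795, 161, 263 and 152 CPM in the CTRL livers (replicates 1 to 5) and 1895, 1899 and 1864 CPM in the OPA1_LKO livers (replicates 1 to 3). The 5 CTRL libraries spread widely, with a ratio of highest to lowest of 5.23, whereas the OPA1_LKO libraries lay within a ratio of 1.02. Even the highest CTRL library, replicate 2, was below the lowest OPA1_LKO library by a ratio of 2.35. The means were 323 ± 268 CPM (SD, n = 5) and 1886 ± 19.0 CPM (SD, n = 3), a log2 fold change of 2.55 ± 0.49 (SE), or 5.84-fold, with an adjusted p of 0.0167 by edgeR. It was 3.20 without CTRL replicate 2. The adjusted p of edgeR was 0.0708 without OPA1_LKO replicate 1 and 0.0616 without OPA1_LKO replicate 3, past the threshold in neither, and below 0.05 without any one of the other 6 libraries. Those fits without OPA1_LKO replicate 1 or 3 called 1.38% and 1.6% of all tested genes, against 6.03% with all 8 libraries. Over the 8 fits that left out 1 library the log2 fold change of Serpina1e was 2.37 to 3.20.

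None of the 4 other copies passed the test. Serpina1c, the most abundant of them, measured 2910, 7251, 3410, 7269 and 4816 CPM in the CTRL livers and 3853, 6095 and 3675 CPM in the OPA1_LKO livers, so that OPA1_LKO lay inside the CTRL range. Serpina1b measured 3610, 4865, 4077, 5645 and 5271 CPM in the CTRL livers and 3927, 5222 and 3859 CPM in the OPA1_LKO livers, again inside it. The log2 fold changes were -0.18 ± 0.34 for Serpina1c, -0.11 ± 0.21 for Serpina1b, -0.31 ± 0.32 for Serpina1d and 0.40 ± 0.19 for Serpina1a (SE), with adjusted p from 0.245 to 0.792 by edgeR. Those of Serpina1c and Serpina1b turned positive on the log2(TPM + 1) scale, at 0.050 and 0.057. Serpina1a ranged from 2066 to 3296 CPM in CTRL and from 3258 to 3895 CPM in OPA1_LKO, the lowest OPA1_LKO library being just below the highest CTRL library.

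The mix of copies therefore differed while their sum did not separate the groups. The share of Serpina1e in the summed TPM of the 5 copies was 2.70, 4.80, 1.56, 1.51 and 1.09% in CTRL replicates 1 to 5 and 14.3, 10.8 and 14.8% in OPA1_LKO. Every OPA1_LKO share was above every CTRL share. The share of Serpina1a was 13.4 to 17.8% in CTRL and 17.2 to 20.8% in OPA1_LKO, 19.4% on average there. The shares of Serpina1b, Serpina1c and Serpina1d were 34.4, 35.6 and 11.7% on average in CTRL and 28.8, 29.8 and 8.79% in OPA1_LKO. The groups overlapped in all 3, with 28.22 to 38.41% against 28.44 to 29.38% for Serpina1b and 30.98 to 42.1% against 27.93 to 33.33% for Serpina1c. For Serpina1d the ranges were 10.11 to 13.14% and 7.746 to 10.12%. The shares are parts of 1 total, so a higher share of 1 copy lowers those of others. Summed over the 5 copies, the level was 14542 ± 3962 CPM in CTRL and 15699 ± 2872 CPM in OPA1_LKO (SD, n = 5 and 3), and without Serpina1e it was 14219 ± 3838 and 13813 ± 2859 CPM. By TPM, Serpina1e went from the ninth to the fifth most abundant serpin gene, and from 1.53% to 9.28% of the serpin total.

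**Figure D3:**
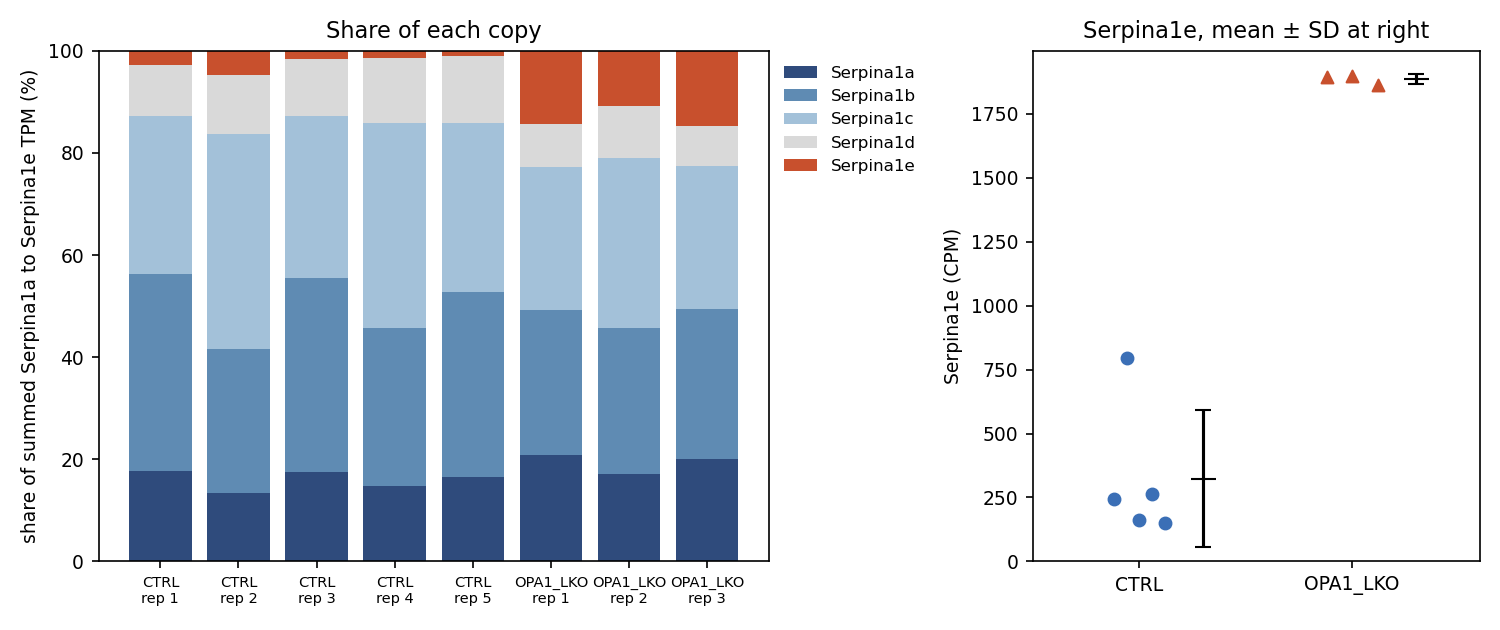
Left, share of each Serpina1 copy in the summed TPM of the 5 copies, 1 bar per library; the Serpina1e share (red) is at most 4.80% in CTRL and at least 10.8% in OPA1_LKO. Right, Serpina1e in CPM, 1 point per library, with mean ± SD beside each group; the 3 OPA1_LKO points lie between 1864 and 1899 CPM, above the highest CTRL point at 795 CPM.

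Serpina12 moved the other way from the same chromosomal cluster. It encodes vaspin, a secreted inhibitor of kallikrein 7 described as an adipokine that improves insulin sensitivity. Its level was 113, 86.0, 95.3, 54.5 and 51.6 CPM in the CTRL livers and 5.82, 9.53 and 7.99 CPM in the OPA1_LKO livers. Every OPA1_LKO library was below every CTRL library. This gave a log2 fold change of -3.36 ± 0.32 (SE), or 10.3-fold lower, for an adjusted p of 0.000806 by edgeR. It passed without any one of the 8 libraries, with log2 fold changes from -3.54 to -3.19.

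The clade A genes other than Serpina7 sit in 1 cluster on chromosome 12, from Serpina10 to Serpina3n (chr12:103616675-104414334, GRCm38.p6). The table held 25 Serpina symbols there, of which 19 belong to the set and 15 of these were tested. Of the other 6, kept out by their low counts or by a pseudogene name, 1 was tested, Serpina4-ps1. Serpina1e (chr12:103946931-103956897) and Serpina12 (chr12:104028769-104044443), the called genes of the cluster, have Serpina11 and Serpina9 between them. Serpina11, whose product is little studied, averaged 49.1 ± 8.35 CPM in the CTRL livers and 44.5 ± 1.90 CPM in the OPA1_LKO livers, with a log2 fold change of -0.14 ± 0.16 that turned to 0.073 on the log2(TPM + 1) scale. Serpina9, a serpin of germinal centre B cells, had too few counts to be tested, at most 0.337 CPM in any library. Serpina1c, on the other side of Serpina1e, did not pass the test either.

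**Figure D4:**
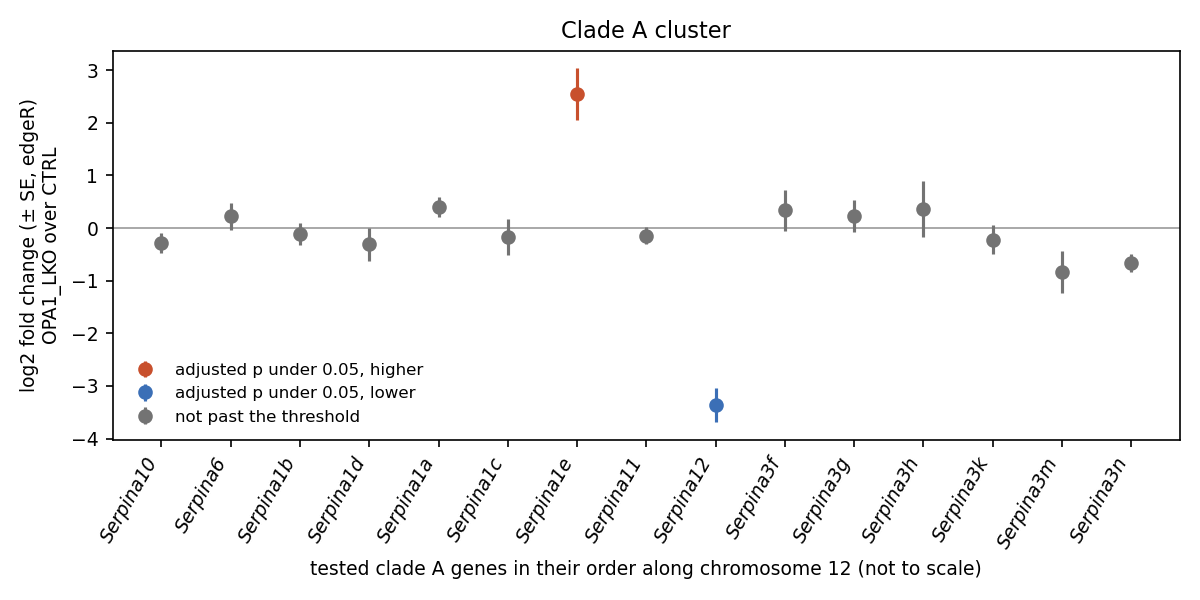
Log2 fold change (OPA1_LKO over CTRL, points with bars of 1 SE from the edgeR fit) of the 15 tested clade A genes of chromosome 12 in their order along the chromosome, not to scale. Serpina1e (2.55) and Serpina12 (-3.36) lie on either side of Serpina11 (-0.14), and none of the other points passed the threshold.

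The Serpina3 genes are the mouse copies of alpha-1-antichymotrypsin, an acute phase inhibitor of neutrophil and mast cell proteases. None of the 6 tested ones passed the edgeR threshold over all genes. Serpina3n, which inhibits granzyme B and rises in inflammation, measured 232, 268, 261, 297 and 347 CPM in the CTRL livers and 148, 205 and 180 CPM in the OPA1_LKO livers, every OPA1_LKO library lying below every CTRL library. The change of -0.66 ± 0.18 on the log2 scale (SE) had an edgeR adjusted p of 0.0539, and it passed with DESeq2 (0.00344) and, by edgeR, without CTRL replicate 1 (0.0279).

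Serpina3m, its neighbour, ranged from 64.5 to 263 CPM in CTRL and from 71.8 to 122 CPM in OPA1_LKO. CTRL replicate 1 was the lowest of all 8 libraries. The difference on the log2 scale came to -0.83 ± 0.40 (SE), for an edgeR adjusted p of 0.242, and -1.04 with an adjusted p of 0.0357 without that library. Serpina3k, the most abundant of the Serpina3 genes, averaged 4711 ± 1314 CPM in the CTRL livers and 4051 ± 1310 CPM in the OPA1_LKO livers, with a log2 fold change of -0.22 ± 0.28. Serpina3g, Serpina3f and Serpina3h had fold changes above 0 on the log2 scale, at 0.23 ± 0.30, 0.34 ± 0.39 and 0.37 ± 0.53, with adjusted p from 0.645 to 0.715. They stood much lower, at 6.48, 1.74 and 0.242 TPM in CTRL against 3168 TPM for Serpina3k. These genes too are close copies of each other whose shared reads were divided by estimation. The untested Serpina3b, Serpina3c and Serpina3i stayed at or below 0.585 CPM in every library.

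**Figure D5:**
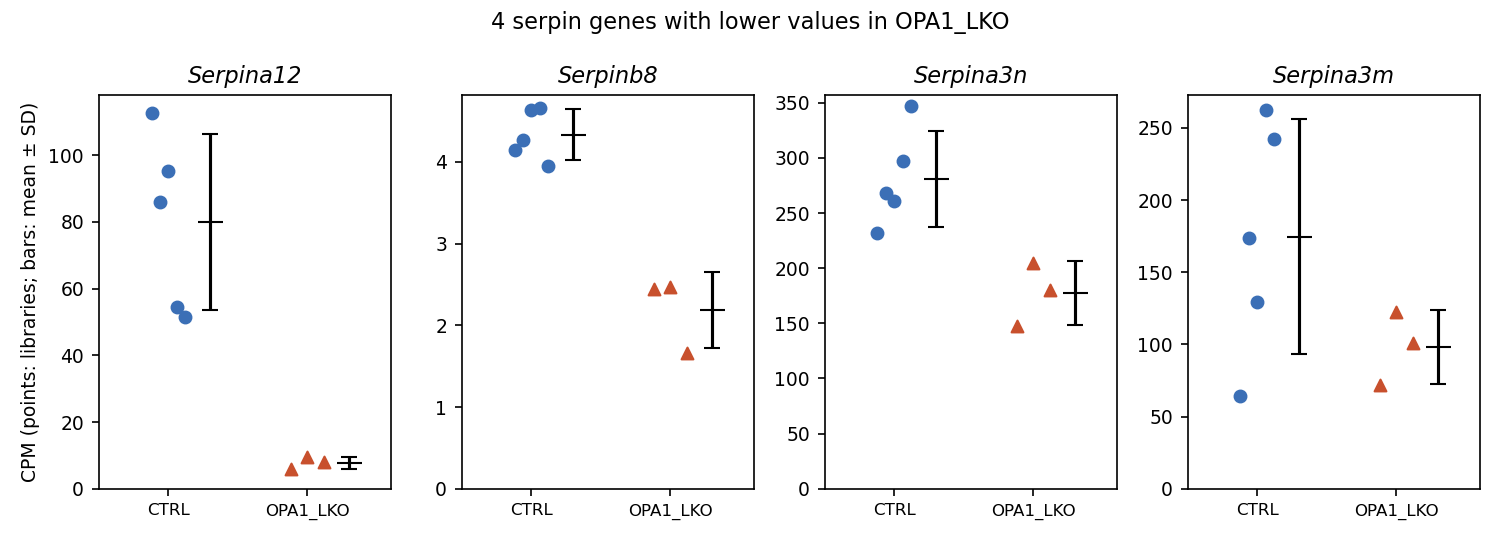
CPM of Serpina12, Serpinb8, Serpina3n and Serpina3m, 1 point per library with mean ± SD beside each group, each panel starting at 0. The groups are apart for the first 3 genes and overlap for Serpina3m; only Serpina12 and Serpinb8 passed the edgeR threshold over all genes.

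The hormone carriers of clade A, which do not inhibit proteases, did not pass the test. Serpina6, the corticosteroid-binding globulin, measured 168, 248, 234, 258 and 254 CPM in the CTRL livers and 379, 271 and 161 CPM in the OPA1_LKO livers. The OPA1_LKO libraries spanned the whole CTRL range, and the log2 fold change of 0.22 ± 0.25 (SE, adjusted p = 0.640 by edgeR) turned to -0.11 without OPA1_LKO replicate 1. Serpina7, the thyroxine-binding globulin, whose gene lies on chromosome X, ranged from 23.9 to 103 CPM in CTRL and from 69.8 to 154 CPM in OPA1_LKO, with a log2 fold change of 0.60 ± 0.41 (adjusted p = 0.404). Serpina10, which inhibits coagulation factor Xa with protein Z, averaged 142 ± 30.0 CPM in the CTRL livers and 116 ± 20.2 CPM in the OPA1_LKO livers, with a log2 fold change of -0.29 ± 0.19 (adjusted p = 0.401).

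Among the 5 tested clade B serpins, which protect cells from proteases that leak or enter, 1 fell. Serpinb8, an intracellular inhibitor of furin-like proteases, measured 4.14, 4.27, 4.64, 4.66 and 3.95 CPM in the CTRL livers and 2.45, 2.47 and 1.66 CPM in the OPA1_LKO livers. The CTRL libraries lay close together, with a coefficient of variation of 7.2%, the lowest of the 29 genes, and all were above OPA1_LKO. OPA1_LKO over CTRL gave -0.98 ± 0.22 (SE), on the log2 scale, for an adjusted p of 0.0309 by edgeR. The call held in 2 of the 8 fits that left out 1 library, without CTRL replicate 1 and without OPA1_LKO replicate 2, and the adjusted p reached 0.123 without OPA1_LKO replicate 3. It was 0.0644 with no low-count filter and 0.0972 on the log2(TPM + 1) scale.

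Serpinb6a, an inhibitor of cathepsin G and trypsin-like proteases, measured 23.9, 14.4, 19.1, 17.9 and 16.4 CPM in the CTRL livers and 20.1, 32.2 and 16.6 CPM in the OPA1_LKO livers. The groups overlapped, with a log2 fold change of 0.32 ± 0.23 (SE). Serpinb1a, an inhibitor of neutrophil elastase, measured 8.92, 16.9, 13.4, 44.4 and 14.0 CPM in the CTRL livers and 19.6, 19.0 and 15.1 CPM in the OPA1_LKO livers. CTRL replicate 4 alone was high, and without it the log2 fold change of Serpinb1a went from -0.12 ± 0.44 (SE) to 0.45. Serpinb9, the inhibitor of granzyme B, ranged from 4.14 to 9.12 CPM in CTRL and from 2.90 to 4.32 CPM in OPA1_LKO, with a log2 fold change of -0.73 ± 0.28 and an edgeR adjusted p of 0.156. Serpinb6b was at 7.12 CPM in CTRL replicate 1, the library with the high macrophage markers, and between 2.36 and 3.64 CPM in the other CTRL libraries, against 3.46 to 5.94 CPM in OPA1_LKO. Its log2 fold change was 0.36 ± 0.35. Serpinb1c, which was not tested, had 18 counts in all, in 4 of the 5 CTRL libraries, up to 0.480 CPM, and none in OPA1_LKO. It thus entered the set through CTRL alone, and at so few counts no difference is read from it.

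The plasma inhibitors of coagulation, fibrinolysis and complement did not pass the test. Serpinc1, antithrombin, the main inhibitor of thrombin, measured 1297, 1452, 1604, 1993 and 1677 CPM in the CTRL livers and 1498, 1500 and 1331 CPM in the OPA1_LKO livers. Serpind1, heparin cofactor II, which also traps thrombin, measured 188, 247, 266, 396 and 341 CPM in the CTRL livers and 226, 278 and 200 CPM in the OPA1_LKO livers. In both genes the OPA1_LKO libraries lay inside the CTRL range. The log2 fold changes were -0.15 ± 0.18 and -0.29 ± 0.24 (SE), with edgeR adjusted p of 0.639 and 0.494.

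Serpinf2, the alpha-2-antiplasmin that stops plasmin, measured 275, 392, 347, 472 and 535 CPM in the CTRL livers and 332, 330 and 346 CPM in the OPA1_LKO livers. Serping1, the C1 inhibitor of complement and contact activation, measured 469, 526, 431, 654 and 571 CPM in the CTRL livers and 419, 576 and 363 CPM in the OPA1_LKO livers. Neither passed, with log2 fold changes of -0.27 ± 0.21 and -0.23 ± 0.20 (SE). Serpinf1, pigment epithelium-derived factor, which blocks the growth of vessels rather than a protease, measured 365, 428, 439, 547 and 529 CPM in the CTRL livers and 438, 529 and 391 CPM in the OPA1_LKO livers. Its log2 fold change of -0.03 ± 0.18 had the edgeR p farthest from the threshold of the 29 genes, an adjusted 0.942, and its sign turned under other scalings, to 0.063 with upper-quartile factors.

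Serpine2 of clade E, protease nexin 1, an inhibitor of thrombin and plasminogen activators outside the plasma, measured 6.96, 8.65, 4.81, 10.6 and 6.76 CPM in the CTRL livers and 5.13, 10.1 and 5.39 CPM in the OPA1_LKO livers. The groups overlapped, with a log2 fold change of -0.13 ± 0.30 (SE).

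Serpinh1 encodes HSP47, a chaperone of the endoplasmic reticulum that binds procollagen and inhibits no protease. It measured 19.3, 10.9, 13.7, 8.03 and 13.5 CPM in the CTRL livers and 19.4, 32.9 and 12.1 CPM in the OPA1_LKO livers. OPA1_LKO replicate 2 was the highest library and replicate 3 lay inside the CTRL range. The difference on the log2 scale came to 0.71 ± 0.32 (SE), for an edgeR adjusted p of 0.215. Of 20 tested procollagen and collagen-processing genes, 2 rose and 0 fell, where 3.34% of all tested genes rose and 2.69% fell. The 2 were Col5a2 (2.25 to 7.85 CPM) and Col4a2 (14.3 to 33.1 CPM), which encode fibrillar and basement membrane collagen chains. In that list 18 of the 20 fold changes were above 0 on the log2 scale, against 46.9% of all tested genes. The median was 0.80, and 5 rose without CTRL replicate 1 and 0 without OPA1_LKO replicate 3. Of all tested genes those fits called 12.2% and 1.6% in either direction, against 6.03% with all 8 libraries. The 8 stellate cell markers, among them Dcn and Lum, summed to 201 to 278 CPM in CTRL and to 258, 550 and 296 CPM in OPA1_LKO, so that OPA1_LKO replicate 2 was highest here too. Dcn was the largest part of these sums, at 102 to 190 CPM in CTRL and 137, 336 and 181 CPM in OPA1_LKO. None of the 8 was called by edgeR and all had log2 fold changes above 0. The part of stellate cell RNA in the Serpinh1 values was not tested.

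Serpini1, neuroserpin, an inhibitor of tissue plasminogen activator in neurons, was not tested. It was at 2.66 CPM in CTRL replicate 1, with 50 counts, and at 0.112, 0.224, 0.343 and 0.401 CPM in the other CTRL libraries. In OPA1_LKO it was at 0.139, 0.405 and 0.355 CPM, so that CTRL replicate 1 alone was high.

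The proteases that serpins act on, and the factors around them, were examined as lists. Of all 14036 tested genes, 3.34% were called higher and 2.69% lower by edgeR. An unadjusted p under 0.05 was reached by 3337 of them. In either direction DESeq2 called 12.1%, and edgeR without CTRL replicate 1 called 12.2%. A list of 18 genes, most of them for plasma proteases, covered coagulation, fibrinolysis, contact activation and complement. Of these 18, 0 were called by edgeR in either direction, with a median log2 fold change of -0.23. An unadjusted p under 0.05 was reached by 3 of them, DESeq2 called 2 lower, and without CTRL replicate 1 edgeR called 1 higher and 2 lower. The smallest p belonged to C1s1, the complement protease that Serping1 inhibits (444 CPM on average in CTRL to 289 CPM in OPA1_LKO, adjusted p = 0.0577), Klkb1, plasma kallikrein (287 to 196 CPM, 0.107), and Plat, tissue plasminogen activator (1.29 to 4.31 CPM, 0.159). Of 10 granule proteases of neutrophils, mast cells and cytotoxic cells 2 were abundant enough to be tested, Prtn3 and Gzma, and neither was called by edgeR or DESeq2 or had an unadjusted p under 0.05.

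Of 14 tested cell-surface and lysosomal proteases 1 rose and 1 fell, where 3.34% of all tested genes rose and 2.69% fell. The median log2 fold change was 0.0075. Ctsl, the lysosomal cathepsin L, rose from 473 ± 112 CPM in CTRL to 1149 ± 308 CPM in OPA1_LKO (SD, n = 5 and 3), and Ctsc, which activates granule proteases, fell from 51.3 ± 13.9 to 22.7 ± 6.98 CPM. In this list 0 rose without OPA1_LKO replicate 1, and 0 fell without any one of CTRL replicates 2, 4 and 5 and OPA1_LKO replicates 1 and 3. These fits called 1.38 to 3.56% of all tested genes, against 6.03% with all 8 libraries. Of 12 tested cofactors and clearance receptors, such as Lrp1, the receptor that takes up serpin complexes in the liver, 0 were called by edgeR, with a median of 0.0051. Against 3337 of all 14036 tested genes, an unadjusted p under 0.05 was reached by 3 of the 12. DESeq2, which called 12.1% of all tested genes, called 1 of the 12 higher and 2 lower. Among those with the smallest p were Vldlr (6.81 to 11.6 CPM, adjusted p = 0.0551) and Lrp1 (349 to 234 CPM, 0.0825).

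Of 24 tested genes listed for protease inhibitors outside the serpin family and for proteins related to them, 3 rose and 1 fell. Of all tested genes 3.34% rose and 2.69% fell. Ahsg, fetuin-A, rose from 3939 ± 613 to 7441 ± 1328 CPM, Itih2, an inter-alpha-trypsin inhibitor heavy chain, from 529 ± 112 to 1016 ± 245 CPM, and Wfdc3 from 0.0970 ± 0.156 to 12.6 ± 4.94 CPM. Wfdc2 fell from 50.3 ± 22.9 to 5.72 ± 1.77 CPM. The median of this list was -0.03, and 1 rose without any one of CTRL replicates 2 and 5 and OPA1_LKO replicates 1 and 3. These fits called 1.38 to 3.19% of all tested genes, against 6.03% with all 8 libraries.

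Of 23 genes for the transcription and cytokine control of liver serpins, 2 fell and 0 rose, with a median of -0.14. Of all tested genes 2.69% fell and 3.34% rose. The 2 that fell are hepatocyte transcription factors, Cebpa (341 ± 61.8 to 194 ± 23.5 CPM) and Foxa2 (29.2 ± 7.02 to 14.7 ± 2.72 CPM). Without CTRL replicate 1, 5 fell, and 0 did without any one OPA1_LKO library. Of all tested genes 12.2% were called in either direction without CTRL replicate 1. Without OPA1_LKO replicates 1, 2 or 3 these shares were 1.38, 4.69 and 1.6%, against 6.03% with all 8 libraries. Of 22 genes for endoplasmic reticulum quality control, the system that retains misfolded alpha-1-antitrypsin, 2 had an unadjusted edgeR p under 0.05. Among all 14036 tested genes 3337 did. Of these 22, 0 were called by edgeR or by DESeq2. The median was -0.04, and the smallest p belonged to Derl2 (78.7 to 63.6 CPM, edgeR adjusted p = 0.156), Derl1 (83.0 to 116 CPM, 0.171) and Edem1 (60.3 to 48.7 CPM, 0.363).

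Transcript usage was compared for the 8 serpin genes with at least 5 TPM and at least 2 transcripts of 5% of the gene or more. With 19 transcript shares and a smallest possible p of 0.0179 over the 56 ways to assign the libraries to 5 and 3, Benjamini-Hochberg adjustment could give a value under 0.05 only with at least 7 shares at that p, so the shares are given as values. In Serpinb1a NM_025429.2 held 27.0, 29.3, 37.7, 29.0 and 27.3% of the gene in CTRL and 20.8, 25.8 and 20.1% in OPA1_LKO (exact two-sided permutation p = 0.0179, the smallest possible, and 0.170 after adjustment). Every OPA1_LKO share was below every CTRL share. In Serpina3n the share of NM_009252.2 was 26.4, 57.9, 11.3, 57.7 and 47.7% in CTRL and 37.0, 43.8 and 21.8% in OPA1_LKO. The lowest shares were in CTRL replicate 3, OPA1_LKO replicate 3 and CTRL replicate 1. The first RefSeq curated transcripts of Serpina3m and Serpind1 were lowest in the same 3 libraries, and those of the 5 other genes were not. That of Serpinb6a was highest in OPA1_LKO replicate 3, at 78.9%, and that of Serpinb1a in CTRL replicate 3.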

How the data were processed

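Per the labels' protocols, total RNA of whole liver was column-purified and made into stranded mRNA libraries. The tools in the submitters' processing notes are MultiQC, StringTie, RSEM and STAR, with mm10 as build and no versions. The authors deposited unnormalised RSEM expected counts of genes and of transcripts, and TPM of the same features, scaled within each library. No annotation release is stated.

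Expected counts were rounded to whole numbers. Genes with low counts were removed with filterByExpr (minimum count 10, minimum total 15), which left 14036 of 35976. With TMM factors, edgeR 4.0.16 (R 4.3.3; quasi-likelihood test) compared 3 OPA1_LKO with 5 CTRL libraries, with group as the only term, and p-values were adjusted by Benjamini-Hochberg over all tested genes. CPM used TMM-scaled library sizes. Each SE is the fold change on the log2 scale over the root of its F statistic. Levels of different genes were compared in TPM. Transcript shares were compared by the absolute difference of group means in an exact permutation test.

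The serpin genes, the 8 functional lists and the 12 marker lists were chosen with earlier results of these data known. Per-library values are given for genes called, genes with at least 1 CPM whose groups did not overlap, and the 2 most abundant of each clade. Serpina1a, Serpina6, Serpina9, Serpinb6b, Serpinb9, Serpina3m and Apoe were also described for their place or after their values were seen. Some genes that this choice covers, 1 serpin among them, are not reported here. Sequences came from GENCODE M21 transcripts and RefSeq promoter tables.

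Alternatives were other normalisation factors, no filter, DESeq2 1.42.0, limma 3.58.1 on log2(TPM + 1) and log2(TPM + 0.1), a replicate block and leaving out libraries. The procedure was tested on simulated data.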

Additional observations from a re-analysis of the deposited data

Results flagged for a closer look

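The CTRL values of the 29 tested serpin genes and of Opa1, 30 sets, were examined for outliers. In 4 of these sets 1 library stood far from the other 4. The limit used flags about 1 in 20 sets of independent values with a normal spread. The CPM were not log-transformed and the 30 sets come from the same 5 libraries, so 4 of 30 cannot be set against that rate. Serpina1e was highest in CTRL replicate 2, at 795 CPM, with the next library at 263 CPM. Serpina6, the corticosteroid carrier, was lowest in CTRL replicate 1, at 167.5 CPM, with the next at 234 CPM. Serpinb1a, the elastase inhibitor of clade B, was highest in CTRL replicate 4, at 44.4 CPM, with the next at 16.9 CPM. Serpinb6b was highest in CTRL replicate 1, at 7.12 CPM, with the next at 3.64 CPM, in the library where the macrophage markers summed to 838 CPM. The part of those cells in the Serpinb6b value was not tested.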

How the results depend on the processing

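Serpina12 was called lower in every fit run and Serpina1e higher in all but those without OPA1_LKO replicate 1 or 3. Of the serpin genes 1 was called lower with no low-count filter, on log2(TPM + 1), on log2(TPM + 0.1) and with the replicate block, and 4 without CTRL replicates 1 and 3, a pair chosen after seeing the data. Leaving out 1 library gave 0 to 1 higher and 1 to 4 lower, 4 being without CTRL replicate 1. Over all genes, 469 were called higher and 377 lower. DESeq2 called 841 and 851, the fit without CTRL replicates 1 and 3 called 1491 and 1428, and leaving out 1 library gave 144 to 924 higher and 54 to 777 lower. The count of lower genes was 238 with no filter, 107 on log2(TPM + 1) and 113 on log2(TPM + 0.1). The cause was not tested. Opa1 passed with DESeq2 (-0.62), without CTRL replicate 1 (-0.69) and without CTRL replicates 1 and 3 (-0.74), and its log2 fold change without 1 library was -0.71 to -0.49.

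The correlations of same-numbered deviations were 0.111, 0.0754 and 0.224, which does not settle whether the replicate numbers pair the samples. That of replicate 2 was not over 0.1. OPA1_LKO replicates 1 and 3 correlated best with their own numbers, and OPA1_LKO replicate 2 with CTRL replicate 5 (0.199). With the replicate block 193 genes were called higher and 174 lower, with Serpina1e higher and Serpina12 lower among the serpins.

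Signs turned only in genes that did not pass. Serpinf1 was at 0.063 with upper-quartile factors. On log2(TPM + 1) and log2(TPM + 0.1), where the median of all genes was 0.092 and 0.14 against -0.03, Serpina1c stood at 0.050 and 0.050, Serpina1b at 0.057 and 0.057, Serpina11 at 0.073 and 0.074, Serpinb1a at 0.28 and 0.30, Serpinc1 at 0.031 and 0.031, Serpine2 at 0.013 and 0.014, and Serpinf1 at 0.14 and 0.14. With the replicate block Serpina1c was at 0.088, Serpina1b at 0.048, Serpinb1a at 0.48, Serpind1 at 0.0095, Serpinf1 at 0.13 and Serpinf2 at 0.0069. Without 1 library the ranges were -0.45 to 0.0051 for Serpina1c, -0.30 to 0.45 for Serpinb1a, -0.52 to 0.041 for Serpine2, -0.16 to 0.095 for Serpinf1, -0.11 to 0.51 for Serpina6 and -0.0025 to 0.54 for Serpinb6a. The filter on low counts left 7 of the 36 serpin genes untested, and the fit without it tested all 36.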

Other observations

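Serpina4-ps1, a transcribed pseudogene that lies between Serpina12 and Serpina5 in the chromosome 12 cluster and that its name kept out of the set, was looked at after its values were seen. It averaged 7.53 ± 3.86 CPM in the 5 CTRL livers and 24.5 ± 16.5 CPM in the 3 OPA1_LKO livers (SD). This gave a log2 fold change of 1.71 ± 0.49 (SE) for an edgeR adjusted p of 0.0703, short of the threshold.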
